A study of Homo sapiens with 28 samples.

Results

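The proteasome genes described here are the rows of the expression table whose symbol starts with PSMA, PSMB, PSMC, PSMD, PSME, PSMF or PSMG and goes on with a number. PSMB8 and PSMB9 were left out by that rule, and 47 of the 18961 rows of the table remained. By role they are 7 alpha and 7 beta subunits of the core particle, 3 tissue-restricted or inducible variants of core subunits, 6 ATPases and 11 other subunits of the regulatory particle, 3 chaperones of its base, 4 chaperones of the core, 4 activators and 1 inhibitor. The last row, PSMC3IP, matches by spelling only: it encodes a protein that binds PSMC3 and acts in homologous recombination, not a proteasome part.

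Expression had been measured in 28 libraries of 4 established human liver cancer lines, HepG2, Hep3B, HuH7 and PLC/PRF/5. Each line was represented by 3 libraries from cells grown in vitro and 4 from tumours grown in ovo. For the tumours, cells in a graft medium were placed on the chorioallantoic membrane, the vascular membrane under the shell, of fertilised white leghorn eggs at embryonic day 9, and the tumours were taken at embryonic day 18. No gene was altered and no drug is named for any group. Both conditions therefore share an unmodified parental line, and differ in the host, in the time on the membrane and in the RNA kit, which was the mini version for cultures and the midi version for tumours. Kit and condition cannot be told apart. A grafted tumour also holds chick cells, while the amplicons used were designed for human transcripts. Whether replicates are separate cultures or eggs is not stated in the labels, and the spread that the p-values rest on may therefore be technical.

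The proteasome is the protease of the cytosol and nucleus that degrades proteins marked with ubiquitin. Its barrel-shaped core, the 20S particle, stacks rings of alpha subunits, which form the gate, around rings of beta subunits, of which PSMB5, PSMB6 and PSMB7 carry the active sites. The 19S regulatory particle caps the core: its ATPases (PSMC genes) unfold the substrate, and its other subunits (PSMD genes) bind ubiquitin chains and, through PSMD14, cut them off. Other genes of the set build the particle (PSMG1 to PSMG4, PSMD5, PSMD9, PSMD10), open the core without the 19S cap (PSME1 to PSME4) or inhibit it (PSMF1).

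The 12 cultures held 6205368 to 8662998 recovered reads and the 16 tumours 6085750 to 15086465. 3 reads, taken as the floor of a library, were thus worth 0.199 to 0.493 CPM before TMM scaling. CPM, the reads of a gene on a common library total, are given after TMM scaling, with factors from 0.447 to 1.52. On that scale the floor is higher in libraries with a factor below 1, lowest in Hep3B in ovo replicate 3 (0.447). Signal at 392 olfactory receptor amplicons, taken here as a reading of background, was found more often in tumours: 5.61% to 51.8% of them had a read there, against 2.04% to 7.91% in cultures. The summed level of 12 hepatocyte markers was 103238 to 109716 CPM in HepG2 cultures and 160936 to 268323 CPM in its tumours, 41475 to 43526 and 202382 to 327339 CPM in Hep3B, and 16285 to 16791 and 4894 to 8078 CPM in HuH7. It was thus higher in tumours of HepG2 and Hep3B and lower in those of HuH7, without overlap. In PLC/PRF/5 these markers were largely missing in culture: 1 of 12 exceeded 10 CPM in vitro (25 to 32 CPM summed) and 9 in ovo (818 to 2157 CPM summed). Summed markers of other cells were 0.236 to 23.3 CPM in vitro and 2.27 to 58.8 CPM in ovo for 6 endothelial genes, 11.7 to 208 and 3.35 to 133 CPM for 6 fibroblast genes, 21.9 to 401 and 5.56 to 65.1 CPM for 6 leukocyte genes, and at most 0.111 and 0.34 CPM for the 3 erythroid genes in the table. The part of these differences in the results below was not tested. In ovo replicate 3 had the fewest of the 47 proteasome genes over the floor in HepG2, with 36 against 41 to 44 in the other tumours, and in HuH7, with 36 against 40 to 44. In Hep3B it had 37, next to 38 in replicate 2 and 43 and 44 in the others. In PLC/PRF/5 it had 44, next to 44 and 45 in the others. Counts over all members, by core and 19S role, across lines and by list are given with and without the in ovo libraries numbered 3. As these libraries were set apart by counts of the same genes, the counts without them are a description and no independent support.

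Each gene was read through 1 amplicon, a stretch of complementary DNA between a primer pair, so a level describes that stretch and not the whole transcript. The 47 amplicons were 71 to 242 bases long with a GC content of 41.4% to 64.8%. 41 of them spanned at least 2 exons. 45 lay wholly in coding sequence of the GENCODE 29 annotation; the exceptions were PSMA8 and PSME3. The amplicons of PSMA1, PSMA2, PSMA6, PSMC1 and PSMD7 also occur in transcripts of another annotated gene, for PSMC1 that of the pseudogene PSMC1P1, and their values are uncertain to that extent. Shown are the amplicons of the members on which the results turn: PSMA7, with almost no reads in 2 lines; PSMB3 and PSMD14, lower in ovo in all 4 lines; PSMA2, with the lowest fold change; and PSMG4, with the highest. Their positions in GRCh38 are chr20:62137407-62138270 (PSMA7, minus strand), chr17:38755919-38760531 (PSMB3, plus strand), chr2:161318870-161367812 (PSMD14, plus strand), chr7:42924714-42927406 (PSMA2, minus strand) and chr6:3259164-3263721 (PSMG4, plus strand). Sequences run 5′ to 3′ along the transcript, and capitals mark up to 5 bases on each side of an exon junction.
PSMA7: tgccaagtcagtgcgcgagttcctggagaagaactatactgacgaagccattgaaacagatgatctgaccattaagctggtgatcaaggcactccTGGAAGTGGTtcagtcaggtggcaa
PSMB3: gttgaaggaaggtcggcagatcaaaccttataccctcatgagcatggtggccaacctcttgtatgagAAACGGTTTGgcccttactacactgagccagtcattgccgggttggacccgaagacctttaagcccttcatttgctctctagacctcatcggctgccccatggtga
PSMD14: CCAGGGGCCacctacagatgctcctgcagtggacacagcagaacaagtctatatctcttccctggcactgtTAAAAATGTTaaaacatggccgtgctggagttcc
PSMA2: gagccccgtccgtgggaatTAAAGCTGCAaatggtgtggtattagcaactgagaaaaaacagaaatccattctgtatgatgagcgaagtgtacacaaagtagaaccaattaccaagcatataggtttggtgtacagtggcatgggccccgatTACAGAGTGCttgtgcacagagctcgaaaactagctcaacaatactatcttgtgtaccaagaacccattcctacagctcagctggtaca
PSMG4: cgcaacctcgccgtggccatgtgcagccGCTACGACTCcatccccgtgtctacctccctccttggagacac

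In all 4 lines more proteasome genes were lower in tumours than higher. Of the 45 that passed the filter on low values, limma with Benjamini-Hochberg adjustment over 13100 genes called 9 lower and 1 higher in HepG2, 23 lower and 6 higher in Hep3B, 27 lower and 0 higher in HuH7, and 11 lower and 1 higher in PLC/PRF/5. For HuH7, 0 members were higher at an unadjusted p under 0.05 by limma, while edgeR and DESeq2 each called 1, which was PSMG4. The shares called lower were 20%, 51.1%, 60% and 24.4%, against 13.0%, 27.4%, 19.8% and 5.61% of all genes tested. The shares called higher were 2.22%, 13.3%, 0% and 2.22%, against 12.1%, 24.6%, 23.6% and 11.9% of all genes. The median log2 fold change of the members was -0.42, -0.50, -1.0 and -0.50 in the lines in that order, where that of all genes was -0.01, -0.05, 0.01 and 0.07. For the mean of the 4 lines, 30 members were lower and 5 higher (32.6% and 33.7% of all genes), with a median of -0.60 against 0.00. PSMA8 and PSMB11 did not pass the filter.

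**Figure D1:**
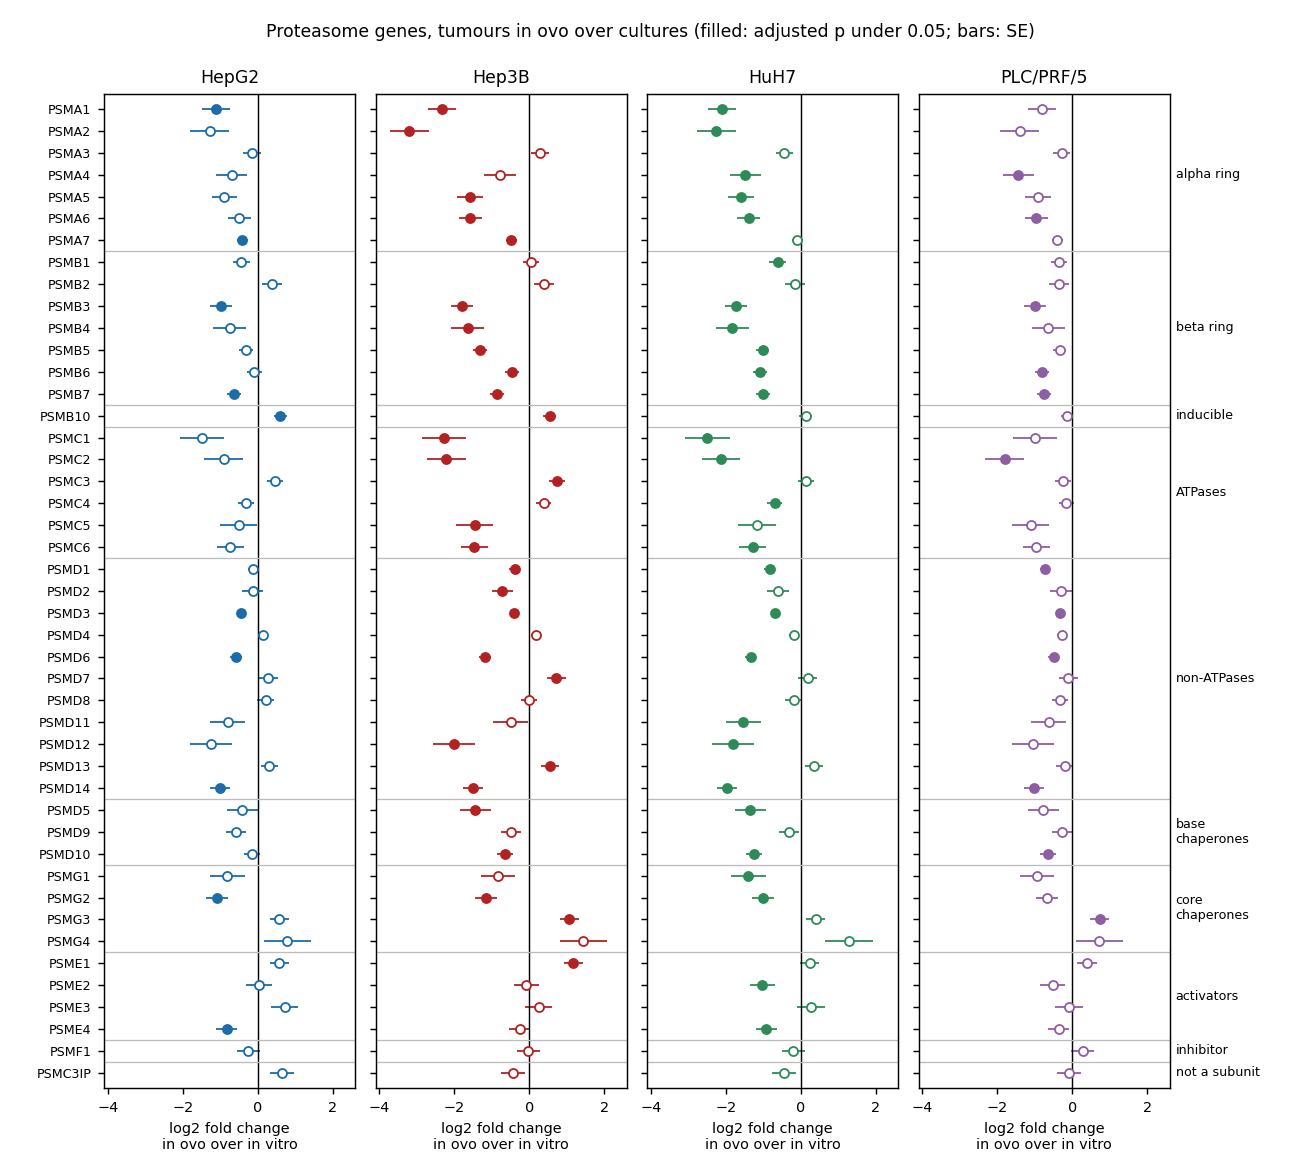
Log2 fold change (tumours in ovo over cultures) of the 45 tested proteasome genes in each line, with bars of 1 SE; filled circles have an adjusted p under 0.05, and grey lines separate roles. Most filled circles lie left of 0 in every line, with PSMB10, PSMG3, PSME1, PSMC3, PSMD7 and PSMD13 on the right where called; in Hep3B, PSMB10, PSMC3, PSMD7 and PSMD13 turn with library totals alone.

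These counts depended on how libraries were scaled and on single libraries. With library totals alone the median of all genes moved by -0.69 in Hep3B, -0.16 in HepG2 and -0.14 in both HuH7 and PLC/PRF/5. The Hep3B split then became 38 lower and 0 higher, with 52.1% and 9.20% of all genes, the HepG2 split 11 lower and 0 higher (15.9% and 9.15%), the HuH7 split 31 lower and 0 higher (23.2% and 19.3%) and the PLC/PRF/5 split 18 lower and 1 higher (9.18% and 9.75%). For the mean it was 37 lower and 2 higher (49.1% and 20.2%). In HepG2, 5 members were lower without in vitro replicate 1 (1204 of 13380 genes) or without in ovo replicate 3 (1392 of 13089 genes). 14 were lower there without in ovo replicate 1 (2002 of 13079 genes). In PLC/PRF/5, 2 members were lower without in vitro replicate 2 (427 of 13344 genes) and 5 without in ovo replicate 3 (586 of 13064 genes). 6 were lower there without in vitro replicate 3 (490 of 13368 genes) and 7 without in vitro replicate 1 (547 of 13379 genes). With the in ovo libraries numbered 3 left out together, 12, 25, 32 and 20 members were lower (15.9%, 32.3%, 23.2% and 11.3% of all genes) in HepG2, Hep3B, HuH7 and PLC/PRF/5, and 32 for the mean (32.9%). Higher were then 4, 7, 0 and 1 (17.9%, 27.4%, 26.9% and 18.2% of all genes), and 4 for the mean (35.4%). By edgeR on the recovered reads, 7, 20, 25 and 11 were lower (11.0%, 22.4%, 15.0% and 4.15%) and 1, 6, 1 and 0 higher (13.0%, 25.5%, 24.7% and 13.0%), with 29 lower and 7 higher for the mean (25.8% and 34.1%). With each line fitted alone, 6, 22, 19 and 20 were lower (10.1%, 22.8%, 10.6% and 10.1%) and 1, 6, 0 and 1 higher (8.73%, 22.8%, 16.6% and 16.7%). The HuH7 calls of PSMB1, PSMC1, PSMC2, PSMC4, PSMD5, PSMD11, PSME2 and PSME4 were lost in that fit. In a bulk library, fewer cells that use a gene and less RNA of it per cell cannot be told apart.

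PSMB3, PSMB7, PSMD3, PSMD6 and PSMD14 fell in all 4 lines, 11.1% of the members tested against 0.611% of all genes. 12 members fell in at least 3 lines (26.7% against 4.55%); beside these 5, they were PSMA1, PSMA6, PSMB6, PSMC2, PSMD1, PSMD10 and PSMG2. In this fit no member was called higher in 1 line and lower in another, and 15 were called lower in none. When the in ovo libraries numbered 3 were left out, the 5 remained and PSMA1, PSMA5, PSMB5 and PSMC1 joined them, 9 of the 45 members against 1.53% of all genes, and 20 members fell in at least 3 lines (44.4% against 7.90%). By edgeR 4 fell in all 4 lines, without PSMD3 (8.89% against 0.359%). The HepG2 calls of PSMB3 and PSMB7 were lost without in vitro replicate 1, and that of PSMB3 also without in ovo replicate 3. All 5 PLC/PRF/5 calls were lost without in vitro replicate 2; of the 28 fits that left out 1 library, 10 lost the PLC/PRF/5 call of PSMD3, 4 each that of PSMB3 and PSMD6, and 1 each that of PSMB7 and PSMD14. PSMB3, a core beta subunit without an active site, read 204, 190 and 185 CPM in HepG2 cultures and 137, 118, 53.0 and 105 CPM in HepG2 tumours (log2 fold change -0.98, SE 0.29, limma adjusted p = 0.0144). In Hep3B it read 204, 207 and 186 CPM in vitro and 82.6, 51.9, 38.8 and 61.7 CPM in ovo (-1.79, adjusted p = 2.13e-05 by limma). The 2 conditions did not overlap in either line, and the lowest tumour in each was replicate 3. HuH7 gave 274, 284 and 272 CPM in vitro and 92.5, 112, 42.1 and 106 CPM in ovo (-1.73), and PLC/PRF/5 319, 329 and 336 CPM against 189, 131, 163 and 186 CPM (-0.99). All 16 tumours were thus below all 12 cultures of their line. The HepG2 call was lost when that line was fitted alone.

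PSMD14, the deubiquitinase of the 19S lid that removes ubiquitin chains from the substrate, had a mean log2 fold change over the lines of -1.38 (SE 0.14), next to -1.37 (SE 0.15) for PSMB3. It read 33.6, 28.6 and 33.0 CPM in HepG2 cultures and 17.3, 16.2, 10.4 and 18.1 CPM in the tumours (-1.01, SE 0.27, limma adjusted p = 0.00694). In Hep3B the values were 38.0, 34.6 and 39.4 CPM in vitro and 14.3, 10.3, 10.6 and 15.7 CPM in ovo (-1.5, limma adjusted p = 7.92e-05). HuH7 had the highest culture level, 83.5, 85.6 and 81.3 CPM, and 22.8, 28, 9.27 and 29.5 CPM in ovo (-1.97, limma adjusted p = 3.35e-06). The conditions did not overlap in these 3 lines. The same held in PLC/PRF/5, with 39.3, 41.4 and 37.0 CPM in vitro and 20, 24.3, 13.4 and 19.4 CPM in ovo (-1.02, limma adjusted p = 0.00979). The response of PSMD14 was not called different between lines.

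**Figure D2:**
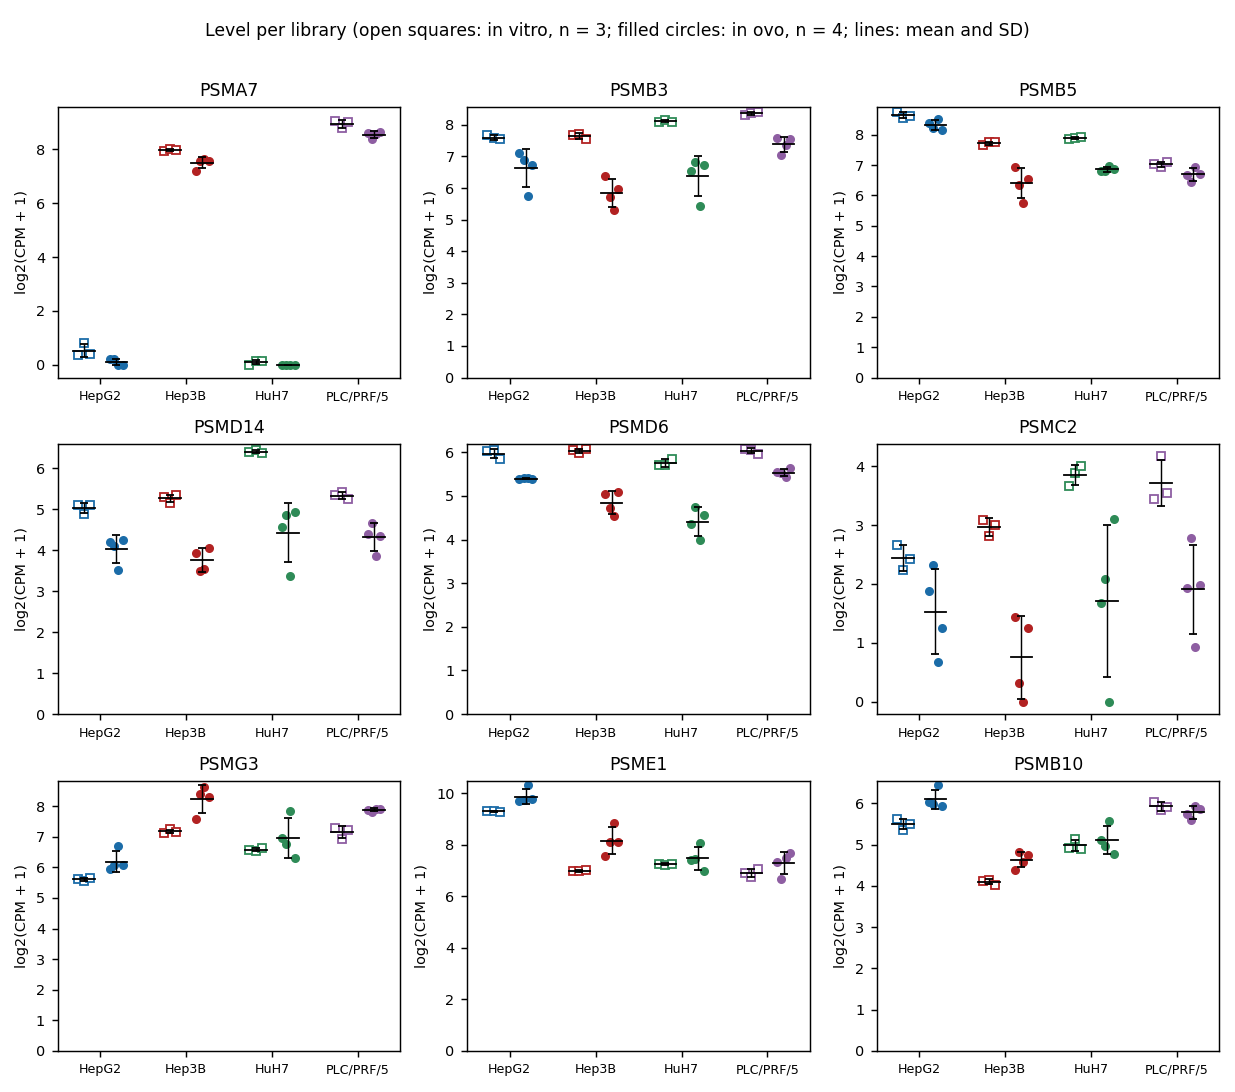
Level of 9 proteasome genes in each library on a log2(CPM + 1) axis, by line; open squares are cultures (n = 3), filled circles tumours (n = 4), and lines give the mean and SD. PSMB3, PSMD14 and PSMD6 lie lower in the tumours of every line, PSMA7 is near 0 in HepG2 and HuH7, and PSMG3, PSME1 and PSMB10 lie higher in the Hep3B tumours on this TMM scale, where PSMB10 turns with library totals alone.

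In the alpha ring, 2 of 7 subunits were lower in HepG2, 5 in Hep3B, 2 in PLC/PRF/5 and 5 in HuH7. Without the in ovo libraries numbered 3 these counts were 3, 6, 6 and 6, with PSMA1, PSMA2, PSMA5 and PSMA7 added in PLC/PRF/5, where the line fitted alone added the same 4 and DESeq2 called 5 in all. None was higher in any line by limma, edgeR or DESeq2, also at an unadjusted p under 0.05 by limma (0 of 7). The ring medians were -0.70, -1.57, -0.91 and -1.48 in that order. PSMA2 had the lowest fold change of all members in a line: Hep3B read 20.1, 16.4 and 18.2 CPM in vitro and 3.94, 0.252, 0 and 2.08 CPM in ovo (-3.20, SE 0.52, limma adjusted p = 2.26e-05). In HuH7 it fell from 10.5, 9.21 and 12.3 CPM to 1.16, 1.83, 0 and 4.80 CPM (-2.25). With the amplicon trends removed the Hep3B and HuH7 changes were -1.62 and -1.18. Tumour replicate 3 had no PSMA2 read in either line. HepG2 read 9.31, 6.91 and 7.79 CPM in vitro and 7, 2.88, 0.592 and 2.77 CPM in ovo, and PLC/PRF/5 14.7, 24.6 and 17.4 CPM against 6.58, 9.66, 5.10 and 5.05 CPM. Those differences did not pass the test (adjusted p = 0.0741 and 0.0645 by limma), although the PLC/PRF/5 groups did not overlap.

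PSMA1 passed the test in 3 lines. It read 33.9, 28.6 and 33.5 CPM in HepG2 cultures and 19.8, 14.9, 11.2 and 11.8 CPM in the tumours (-1.12, limma adjusted p = 0.0287). In Hep3B 36.8, 32.5 and 31.7 CPM stood against 13.5, 5.04, 1.81 and 7.86 CPM (-2.34). In HuH7 64.2, 63.4 and 64.8 CPM stood against 12.2, 19.9, 6.57 and 24.1 CPM (-2.11). The tumours were below the cultures in all 3. With the amplicon trends removed the PSMA1 changes in HepG2, Hep3B and HuH7 were -0.59, -1.04 and -1.2. PLC/PRF/5 tumours lay below their cultures as well, with 35.8, 45.9 and 35.0 CPM in vitro and 20.3, 23.4, 21.1 and 21.1 CPM in ovo, but the test was not passed (-0.82, limma adjusted p = 0.138). PSMA4 fell in HuH7, from 6.27, 4.83 and 6.15 CPM to 1.42, 2.04, 0.506 and 2.06 CPM (-1.48, limma adjusted p = 0.00667). In PLC/PRF/5 it fell from 5.38, 9.92 and 6.24 CPM to 1.93, 2.94, 0.453 and 3.41 CPM (-1.44, limma adjusted p = 0.0171). PSMA4 did not pass in the other two lines, where cultures and tumours overlapped: 3.53, 3.58 and 2.34 against 2.98, 2.08, 0.394 and 1.38 CPM in HepG2, and 4.35, 5.18 and 6.01 against 0.959, 1.51, 3.11 and 7.17 CPM in Hep3B. PSMA5 and PSMA6 were called lower in 2 and 3 lines, and PSMA3 in none (mean over lines -0.15).

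PSMA7, another alpha subunit, was read in 2 lines and nearly absent in the others. Hep3B read 243, 257 and 253 CPM in vitro and 147, 187, 200 and 190 CPM in ovo (-0.48, limma adjusted p = 0.00887). That call was lost with edgeR (adjusted p = 0.0645) and with the amplicon trends removed (-0.26, limma adjusted p = 0.163). PLC/PRF/5 read 529, 437 and 518 CPM in vitro and 388, 330, 374 and 401 CPM in ovo, without overlap but short of the threshold (-0.40, limma adjusted p = 0.0588). HepG2 had 2, 6 and 3 reads in its cultures and 1, 1, 0 and 0 in its tumours, and HuH7 0, 1 and 1 reads in its cultures and none in its tumours. These 2 lines were thus at or near the floor of 3 reads for the amplicon shown above, and no fold is given. The HepG2 call of PSMA7 (adjusted p = 0.0369 by limma) rests on those 13 reads.

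In the beta ring, 2 of 7 subunits were lower in HepG2, 5 in Hep3B, 3 in PLC/PRF/5 and 6 in HuH7, and 4, 5, 4 and 7 without the in ovo libraries numbered 3. As in the alpha ring, 0 were higher in any line by limma, edgeR or DESeq2, also at an unadjusted p under 0.05 by limma. PSMB5, which carries the chymotrypsin-like site and is the main target of bortezomib, fell in Hep3B from 201, 214 and 216 CPM to 123, 80.3, 53.3 and 92.9 CPM (-1.32, SE 0.18, limma adjusted p = 2.44e-06). In HuH7 it fell from 229, 237 and 241 CPM to 112, 110, 126 and 116 CPM (-1.02, limma adjusted p = 9.7e-05). HepG2 gave 431, 379 and 391 CPM in vitro and 332, 299, 370 and 284 CPM in ovo (-0.32, limma adjusted p = 0.204), and PLC/PRF/5 131, 122 and 136 CPM against 102, 85.5, 122 and 104 CPM (-0.34, limma adjusted p = 0.22). PSMB5 thus passed the test in Hep3B and HuH7, while HepG2 tumours also lay below their cultures without passing. Its response differed between lines (interaction adjusted p = 0.00394, limma F test).

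PSMB6, which carries the caspase-like site, fell in 3 lines. HuH7 went from 426, 432 and 418 CPM to 209, 228, 131 and 251 CPM (-1.09, SE 0.19, limma adjusted p = 6.79e-05), and PLC/PRF/5 from 401, 391 and 401 CPM to 258, 153, 241 and 265 CPM (-0.82, limma adjusted p = 0.00294). In Hep3B the decrease was smaller, from 254, 237 and 247 CPM to 192, 173, 154 and 194 CPM (-0.47, limma adjusted p = 0.0401). HepG2 cultures and tumours overlapped, at 215, 190 and 201 CPM and 213, 205, 162 and 180 CPM (-0.09). The response differed between lines (interaction adjusted p = 0.0184, limma F test).

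PSMB7, which carries the trypsin-like site, fell in all 4 lines, and no group overlapped. HepG2 read 39.4, 35.2 and 31.7 CPM in vitro and 28.4, 21.9, 20.3 and 20.1 CPM in ovo (-0.63, SE 0.19, limma adjusted p = 0.0138). Hep3B read 45.5, 44.6 and 43.2 CPM against 20.3, 21.9, 24.9 and 29.6 CPM (-0.87). Every tumour of these lines was below the lowest culture. HuH7 read 60.1, 65.8 and 72.4 CPM against 23.1, 33.5, 34.2 and 40.5 CPM (-1.01), and PLC/PRF/5 66.0, 85.3 and 67.3 CPM against 39.9, 56.0, 35.4 and 41.6 CPM (-0.75, limma adjusted p = 0.00539). Among the beta subunits without an active site, PSMB4 was lower in Hep3B and HuH7 and PSMB1 in HuH7, and PSMB2 passed in no line.

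PSMB10, the interferon-inducible form of PSMB7, moved the other way in HepG2 and Hep3B as measured. It rose from 48.0, 40.2 and 44.4 CPM to 64.7, 62.2, 85.4 and 59.8 CPM in HepG2 (0.60, SE 0.17, limma adjusted p = 0.00983). That call was lost with library totals alone (0.37) and without in vitro replicate 2. In Hep3B 16.5, 16.5 and 15.2 CPM stood against 20, 27.2, 23.0 and 25.7 CPM (0.54, limma adjusted p = 0.00982), but the sign turned with library totals alone (-0.38). HuH7 read 29.3, 34.0 and 28.5 CPM against 33.4, 30.1, 46.7 and 26.3 CPM, and PLC/PRF/5 64.2, 55.8 and 59.5 CPM against 52.9, 47.0, 60.6 and 56.8 CPM. These groups overlapped, and the response differed between lines (interaction adjusted p = 0.0355, limma F test). With the amplicon trends removed the HepG2 call stayed (0.52, limma adjusted p = 0.00887) and the Hep3B call was lost (0.16, limma adjusted p = 0.407). PSMB10 was then called lower in HuH7 (-0.38, limma adjusted p = 0.0419) and PLC/PRF/5 (-0.42, limma adjusted p = 0.0453). The other inducible subunits, which the rule leaves out, gave a mean of 11.5 CPM in vitro and 21.4 CPM in ovo for PSMB9 in HepG2 (0.83, limma adjusted p = 0.00256), and 6.94 against 12.2 CPM in PLC/PRF/5 (0.74, limma adjusted p = 0.00911). Both PSMB9 calls were lost with edgeR (adjusted p = 0.0979 and 0.157). PSMB8 was called in no line. PSMA8, a core variant of the testis, and PSMB11, one of the thymus, had no read in any culture; the highest tumour had 6 and 5 reads, both in HepG2.

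Among the 19S ATPases, 0 of 6 were lower in HepG2, 4 in Hep3B, 1 in PLC/PRF/5 and 4 in HuH7, and PSMC3 was higher in Hep3B. The counts of lower ATPases were 1, 4, 2 and 4 without the in ovo libraries numbered 3, and PSMC3 was higher in HepG2 as well. In HepG2 the median was -0.62; 1 ATPase was lower and 1 higher there at an unadjusted p under 0.05 by limma, and edgeR and DESeq2 called 0. PSMC1 fell in Hep3B from 66.4, 63.8 and 61.5 CPM to 17.1, 11.6, 6.73 and 17.8 CPM (-2.27, SE 0.59, limma adjusted p = 0.00276). In HuH7 it fell from 59.6, 71.3 and 66.9 CPM to 13.0, 20.3, 1.69 and 24.1 CPM (-2.49, limma adjusted p = 0.00175). With the amplicon trends removed the Hep3B and HuH7 changes of PSMC1 were -1.32 and -1.89. HepG2 tumours, at 30.2, 24.8, 2.96 and 18.1 CPM, were also below their cultures at 46.1, 39.7 and 43.5 CPM, as were those of PLC/PRF/5, at 42.4, 56.6, 23.6 and 42.3 CPM against 77.8, 85.5 and 76.9 CPM. Neither passed (adjusted p = 0.0675 and 0.269 by limma), and tumour replicate 3 was the lowest in all 4 lines.

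PSMC2 fell in Hep3B, HuH7 and PLC/PRF/5. Hep3B went from 7.52, 6 and 7.01 CPM to 1.70, 0.252, 0 and 1.39 CPM (-2.21, SE 0.52, limma adjusted p = 0.00106). HuH7 went from 11.6, 13.7 and 15.1 CPM to 2.19, 3.23, 0 and 7.63 CPM (-2.13), and PLC/PRF/5 from 9.88, 17.0 and 10.6 CPM to 2.84, 5.88, 0.907 and 2.97 CPM (-1.81, limma adjusted p = 0.0156). With the amplicon trends removed the changes in Hep3B, HuH7 and PLC/PRF/5 were -1.11, -1.42 and -1.59. HepG2 groups overlapped, at 5.36, 3.70 and 4.34 CPM and 2.68, 4.00, 0.592 and 1.38 CPM. PSMC3 rose in Hep3B, from 27.4, 28.5 and 29 CPM to 34.0, 48.4, 68.6 and 46.7 CPM (0.74, limma adjusted p = 0.00704), and its sign turned both with library totals alone (-0.21) and with amplicon trends removed (-0.22). Its other lines did not pass: 14.8, 14.8 and 12.3 against 20.9, 16.2, 24.6 and 17.7 CPM in HepG2, 28.2, 29 and 27.6 against 29.2, 26.9, 51.1 and 23.2 CPM in HuH7, and 14.8, 15.1 and 17.3 against 15.1, 11.8, 12.7 and 12.9 CPM in PLC/PRF/5.

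PSMC4 was called lower in HuH7, with 1375, 1390 and 1386 CPM in vitro and 1164, 825, 882 and 617 CPM in ovo (-0.70, SE 0.21, limma adjusted p = 0.00892), a call lost when that line was fitted alone (adjusted p = 0.0766). Hep3B read 549, 564 and 570 CPM in vitro and 561, 734, 1157 and 602 CPM in ovo (0.38, limma adjusted p = 0.123), and HepG2 443, 483 and 474 CPM against 316, 355, 425 and 410 CPM. PLC/PRF/5 groups overlapped, at 568, 481 and 512 CPM and 430, 413, 546 and 484 CPM. With the amplicon trends removed PSMC4 was lower also in HepG2 (-0.45, limma adjusted p = 0.033) and PLC/PRF/5 (-0.47, limma adjusted p = 0.0389), and with library totals alone in all 4 lines, where the Hep3B sign turned (-0.59); by DESeq2 it was higher in Hep3B (0.55, adjusted p = 0.044). The responses of the lines differed (interaction adjusted p = 0.0271, limma F test). PSMC5 was lower in Hep3B and PSMC6 in Hep3B and HuH7, where both conditions averaged under 5 CPM.

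Among the 11 other 19S subunits, 3 were lower in HepG2, 6 in Hep3B, 4 in PLC/PRF/5 and 6 in HuH7, and PSMD7 and PSMD13 were higher in Hep3B. These counts of lower subunits became 3, 7, 7 and 9 without the in ovo libraries numbered 3. PSMD6, a lid subunit, fell in all 4 lines without overlap. HepG2 read 63.9, 64.8 and 56.6 CPM in vitro and 40.7, 41.3, 41.4 and 40.9 CPM in ovo (-0.58, SE 0.15, limma adjusted p = 0.00685), and PLC/PRF/5 66.0, 65.5 and 61.4 CPM against 45.4, 45, 42.2 and 48.7 CPM (-0.50, limma adjusted p = 0.0257). The decrease was larger in Hep3B, from 65.0, 61.8 and 66.2 CPM to 32.2, 25.2, 22.3 and 32.8 CPM (-1.18), and in HuH7, from 51.4, 51.1 and 56.8 CPM to 19.6, 25.7, 14.8 and 22.6 CPM (-1.34). That difference between lines passed the test (interaction adjusted p = 0.0036, limma F test). PSMD3, a lid subunit as well, read 419, 422 and 434 CPM in HepG2 cultures and 316, 306, 298 and 322 CPM in the tumours (-0.45), and in Hep3B 352, 373 and 366 CPM against 254, 265, 302 and 279 CPM (-0.41). HuH7 read 523, 560 and 558 CPM against 332, 369, 349 and 306 CPM (-0.69), and PLC/PRF/5 458, 403 and 423 CPM against 356, 330, 320 and 347 CPM (-0.34, limma adjusted p = 0.0361). No group of PSMD3 overlapped. Its mean change was -0.47, next to -0.90 for PSMD6, and the order turned with the amplicon trends removed, at -0.83 and -0.64. The PLC/PRF/5 call of PSMD3 was lost with edgeR.

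PSMD1, the large scaffold subunit of the base, fell in HuH7 from 263, 268 and 253 CPM to 145, 182, 130 and 134 CPM (-0.83, SE 0.14, limma adjusted p = 6.46e-05). In PLC/PRF/5 it fell from 152, 128 and 147 CPM to 94.6, 69.5, 79.9 and 99.0 CPM (-0.73), and in Hep3B from 188, 185 and 194 CPM to 119, 147, 157 and 157 CPM (-0.39, limma adjusted p = 0.0268). HepG2 groups overlapped, at 162, 150 and 152 CPM and 156, 148, 126 and 140 CPM (-0.12). The lines differed (interaction adjusted p = 0.0197, limma F test). PSMD7, a lid subunit, rose in Hep3B from 389, 434 and 418 CPM to 439, 708, 1034 and 671 CPM (0.72, limma adjusted p = 0.0169), and PSMD13, another one, from 133, 145 and 142 CPM to 156, 225, 247 and 208 CPM (0.55, limma adjusted p = 0.0447). Both signs turned with library totals alone (-0.26 and -0.42), where PSMD13 was called lower, and both calls were lost with the amplicon trends removed (0.17 and -0.07). PSMD4 and PSMD8 were called in no line, PSMD2 was lower in Hep3B, PSMD11 in HuH7, and PSMD12 in Hep3B and HuH7.

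The assembly factors did not share a direction. Of the base chaperones, PSMD10 (gankyrin, an oncoprotein in liver cancer) fell in HuH7 from 20, 23.0 and 21.3 CPM to 9.13, 7.85, 5.56 and 12.4 CPM (-1.25, SE 0.21, limma adjusted p = 5.62e-05). In PLC/PRF/5 it fell from 45.2, 64.2 and 47.2 CPM to 34.3, 38.7, 27.3 and 30.2 CPM (-0.66), and in Hep3B from 11.6, 10.5 and 8.57 CPM to 7.24, 5.29, 4.92 and 7.63 CPM (-0.64, limma adjusted p = 0.0152). HepG2 groups overlapped, at 13.1, 10.5 and 12.1 CPM and 12.8, 9.60, 9.07 and 10.8 CPM. The lines differed (interaction adjusted p = 0.0354, limma F test). PSMD5 was lower in Hep3B and HuH7, and PSMD9 in no line.

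Of the core chaperones, PSMG1 was called lower in HuH7 only (-1.4). That call was kept by edgeR, with the line fitted alone and with the amplicon trends removed. With library totals alone PSMG1 was also called lower in Hep3B. PSMG3 instead rose in 2 lines. Hep3B went from 140, 151 and 142 CPM to 192, 341, 394 and 319 CPM (1.06, SE 0.25, limma adjusted p = 0.0014), a call lost with library totals alone (0.08). PLC/PRF/5 went from 157, 121 and 150 CPM to 237, 223, 241 and 240 CPM (0.73, limma adjusted p = 0.0492), a call lost in 16 of the 28 fits that left out 1 library, by edgeR and with amplicon trends removed. HepG2, at 48.4, 46.4 and 49.5 CPM and 60.3, 66.1, 103 and 65.9 CPM, did not overlap but did not pass, and HuH7 overlapped at 95.1, 90.9 and 98.7 CPM and 125, 107, 231 and 78.4 CPM. PSMG4, read through the short amplicon shown above, was called in no line in the reported fit, while its mean over the lines passed (1.06, SE 0.32, limma adjusted p = 0.00529). In HuH7 PSMG4 was called higher by edgeR (2.42, adjusted p = 0.0235) and DESeq2 (2.58, adjusted p = 0.0034). In Hep3B PSMG4 was called higher by DESeq2 (1.78, adjusted p = 0.0394) and with that line fitted alone (1.44, limma adjusted p = 0.00814). It read 7.05, 7.52 and 6.67 CPM in HepG2 cultures and 5.21, 8.16, 64.3 and 9.22 CPM in the tumours, and 2.33, 2.08 and 1.10 against 5.66, 2.69, 30.7 and 1.71 CPM in HuH7. These groups overlapped, with replicate 3 far above the other tumours. Hep3B read 4.75, 4.77 and 4.56 against 9.48, 18.1, 20.2 and 12.5 CPM without overlap, and PLC/PRF/5 7.93, 5.82 and 10.95 against 10.3, 15.2, 16.7 and 13.7 CPM. Without the in ovo libraries numbered 3 the mean of PSMG4 was 0.63 (limma adjusted p = 0.000651) and it was higher in Hep3B, as PSMG3 was in HepG2; with the amplicon trends removed the mean call was lost (0.34, limma adjusted p = 0.192). PSMG2, the partner of PSMG1, was at 0.987 to 3.05 CPM in all cultures. It was called lower in HepG2, with 2.12, 1.85 and 2.56 CPM in vitro and 2.23, 0.320, 0 and 0.154 CPM in ovo, in Hep3B, with 1.05, 1.23 and 1.56 CPM against 0.106, 0, 0 and 0 CPM, and in HuH7, with 1.11, 0.987 and 2.31 CPM against 0.257, 0.108, 0 and 0.514 CPM. Most of these tumours were at or under the floor, and the sign turned with the amplicon trends removed in Hep3B (0.47) and HuH7 (0.10). That fit also gave 0.44 to PSMB8 in HuH7, at 0 CPM in both conditions, so its signs near the floor give no direction. PLC/PRF/5 gave 1.47, 3.05 and 1.77 CPM against 0.810, 1.93, 0.453 and 0.659 CPM and was not called.

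**Figure D3:**
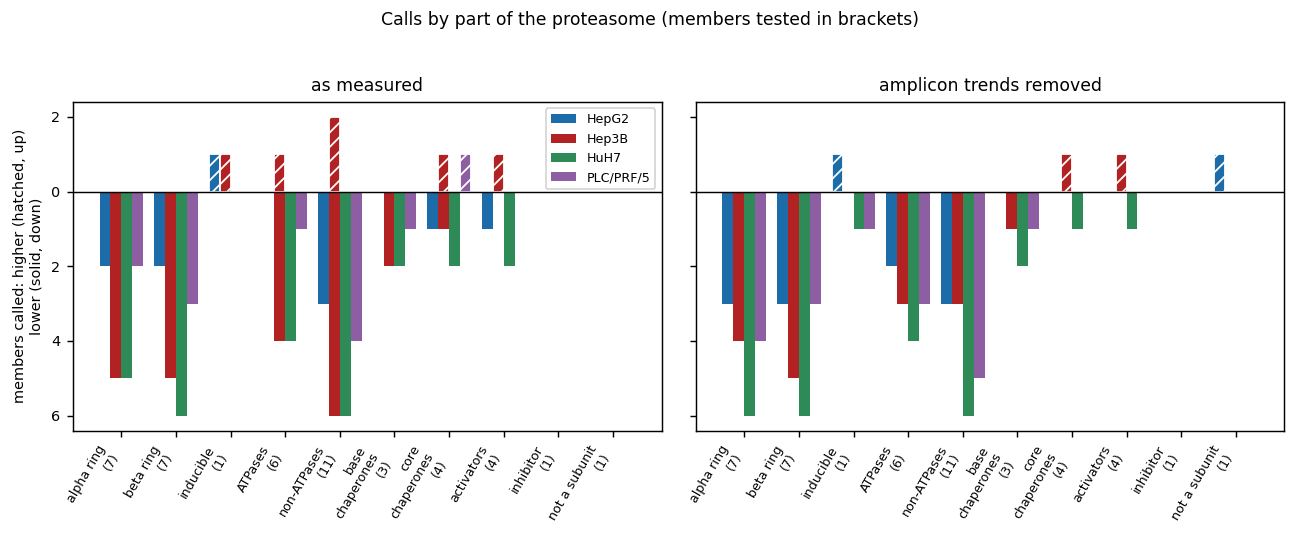
Number of proteasome genes called higher (hatched, upward) or lower (solid, downward) in tumours, by role and line, as measured (left) and with the GC and length trends of the amplicons removed (right); the number tested stands in brackets. Core and 19S subunits are almost all on the lower side in both panels, and the higher calls of PSMC3, PSMD7 and PSMD13 in Hep3B are gone on the right.

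The activators also moved apart. PSME1 and PSME2 are partners in the interferon-inducible PA28 ring. PSME1 rose in Hep3B from 126, 124 and 128 CPM to 186, 276, 458 and 278 CPM (1.17, SE 0.26, limma adjusted p = 0.000594). That call was lost with library totals alone (0.20) and with amplicon trends removed (0.21). HepG2 read 636, 634 and 622 CPM in vitro and 823, 848, 1271 and 870 CPM in ovo, without overlap (0.57, limma adjusted p = 0.108). HuH7, at 153, 146 and 153 CPM and 168, 173, 269 and 124 CPM, and PLC/PRF/5, at 120, 106 and 133 CPM and 162, 101, 178 and 205 CPM, overlapped. PSME2 instead fell in HuH7, from 29.1, 30.1 and 30.2 CPM to 12.5, 19.6, 6.24 and 24.9 CPM (-1.03, limma adjusted p = 0.0164). Its other lines were not called: 66.6, 57.6 and 61.3 against 89.4, 76.6, 33.7 and 68.7 CPM in HepG2, 22.6, 24.8 and 24.5 against 19, 18.6, 18.6 and 39.3 CPM in Hep3B, and 20, 23.1 and 21.0 against 12.9, 17.5, 11.1 and 17.7 CPM in PLC/PRF/5.

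PSME3, which encodes the nuclear activator PA28 gamma, was called in no line. Its tumours read 41.3, 45.9, 112 and 48.7 CPM in HepG2 (32.3, 35.9 and 34.0 CPM in vitro), 53.5, 77.6, 138 and 51.5 CPM in Hep3B (61.0, 63.5 and 61.0 CPM), 49.4, 43.9, 117 and 27.2 CPM in HuH7 (41.7, 42.6 and 42.7 CPM) and 58.0, 61.3, 64.7 and 65.2 CPM in PLC/PRF/5 (72.3, 49.8 and 80.8 CPM). Tumour replicate 3 was the highest in the first 3 of these lines. PSME4, the activator PA200, reached at most 2.26 CPM in any library and was called lower in HepG2 (2.26, 0.987 and 1.56 against 1.49, 0.160, 0 and 0.461 CPM) and HuH7 (1.82, 1.21 and 1.54 against 0.129, 0.108, 0 and 1.46 CPM), where cultures and tumours overlapped and several tumours were under the floor; edgeR called neither. Hep3B gave 0.660, 0.545 and 0.223 against 0.532, 0, 0 and 0.462 CPM, and PLC/PRF/5 0.489, 1.15 and 1.06 against 0.304, 0.504, 0.340 and 0.659 CPM. PSMF1, the inhibitor PI31, overlapped in all 4 lines and was called in none. It read 265, 266 and 260 against 228, 233, 171 and 264 CPM in HepG2, 102, 102 and 98.8 against 211, 84.6, 44.0 and 121 CPM in Hep3B, 160, 180 and 170 against 138, 180, 99.1 and 188 CPM in HuH7, and 85.9, 90.7 and 72.2 against 102, 85.1, 113 and 101 CPM in PLC/PRF/5. PSMC3IP was called in no line in the reported fit. In HepG2 it was called higher by DESeq2, with the amplicon trends removed (0.81) and without the in ovo libraries numbered 3. It is counted among the higher members of HepG2 in those fits, although it is not a proteasome part.

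In all, the response of 7 members differed between lines by the interaction test, against 41.8% of all genes: PSMB5, PSMB6, PSMB10, PSMC4, PSMD1, PSMD6 and PSMD10. That is 15.6% of the members tested. In 5 of these 7, all but PSMB10 and PSMB5, HuH7 had the lowest fold change. The count was 3 without HepG2 in vitro replicate 3 or HuH7 in vitro replicate 2, 11 without HuH7 in ovo replicate 3 or 4, and 12 without HepG2 in ovo replicate 3 or Hep3B in ovo replicate 1. With the in ovo libraries numbered 3 left out together it was 24. The share of all genes was not counted in those fits, so these changes cannot be read as particular to the members.

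Fold changes of the members followed their amplicons. Across the 45 members the mean fold change of the 4 lines had a Spearman correlation of 0.74 with amplicon GC content and of -0.48 with amplicon length; across all 13100 genes these were 0.51 and -0.44. In the single lines the members gave 0.67 to 0.77 for GC and -0.56 to -0.31 for length. The points share libraries and are given as a description. PSMA2, with the lowest mean fold change (-2.03), was read through 241 bases, and PSMG4, with the highest (1.06), through the shortest amplicon, 71 bases. The longest, PSMG2 at 242 bases, had -0.98. Of the 15 members with amplicons of 160 bases or more, 13 were lower for the mean of the lines (51.7% of all genes of that length), and of the 14 under 120 bases 6 were lower and 3 higher (16% of all such genes lower). In each length class the members' median, -0.04, -0.45 and -1.11 from short to long, lay below that of all genes, at 0.35, 0.06 and -0.37.

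**Figure D4:**
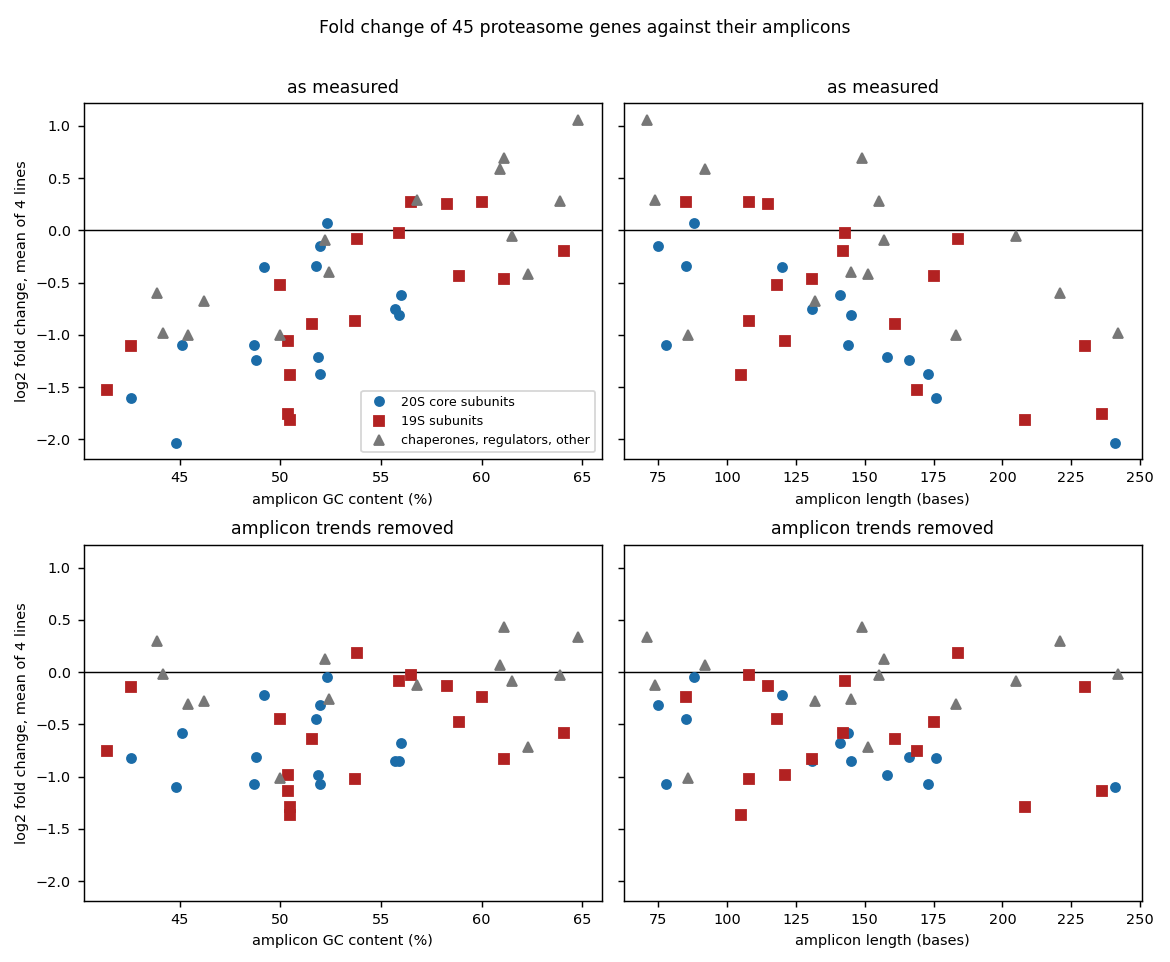
Mean log2 fold change of the 4 lines (tumours over cultures) of 45 proteasome genes against the GC content (left, percent) and length (right, bases) of their amplicons, as measured (top) and after the trend over all genes was removed in each library (bottom). The slopes of the top panels are smaller in the bottom panels, where most core and 19S subunits remain below 0.

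The fit was therefore repeated with the trends of log2 level on amplicon GC and length, estimated over all genes, removed from each library. The members' correlation with GC was then 0.31 and with length -0.06. Lower calls in HepG2, Hep3B, HuH7 and PLC/PRF/5 numbered 11, 16, 27 and 17 (14.4%, 20.7%, 19.2% and 7.95% of all genes), of which 6, 15, 23 and 11 had been called as measured. Higher calls numbered 2, 2, 0 and 0 (14.9%, 23.9%, 21.5% and 11.3% of all genes). In HepG2 they were PSMB10 and PSMC3IP, which is not a proteasome part. 7 members were lower in all 4 lines (15.6% against 0.802% of all genes): PSMB3, PSMB7, PSMD3, PSMD6 and PSMD14 as before, and PSMA2 and PSMA5. Higher calls were less stable: of the 6 in Hep3B only PSMG3 was still called, and that of PSMG3 in PLC/PRF/5 was lost. The other higher call in Hep3B was PSME4, which had 18 reads over all libraries of that line. The lower calls of PSMG2 and PSMC6 were lost in every line that had them, and so were those of PSME4. In Hep3B those of PSMA7, PSMD1, PSMD2, PSMD5, PSMD10 and PSMD12 were lost as well, and in HuH7 that of PSMD5.

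The summed level of the 47 members fell in 2 lines without overlap. HuH7 cultures held 8945 to 9110 CPM and tumours 5354 to 8679 CPM, and PLC/PRF/5 cultures 6427 to 6937 CPM and tumours 4739 to 5626 CPM. HepG2, at 5855 to 6006 CPM in vitro and 5493 to 7003 CPM in ovo, and Hep3B, at 5827 to 6007 and 4737 to 7160 CPM, overlapped. The highest tumour of HepG2, Hep3B and HuH7 was replicate 3 on that scale. Without the libraries numbered 3 the tumours held 5493 to 5576 CPM in HepG2, 4737 to 5686 CPM in Hep3B and 5354 to 6611 CPM in HuH7, and 0 of the 4 lines overlapped. On library totals alone, Hep3B no longer overlapped, at 6531 to 6684 CPM in vitro and 2948 to 3974 CPM in ovo. A sum is led by the most read amplicons, such as PSMC4 and PSMD7, and says little of the others.

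Genes that work with the proteasome were read from lists by function, beside 32.6% of all genes lower and 33.7% higher for the mean of the lines, and 27.4% and 32.0% with the amplicon trends removed. Of 11 tested accessory parts and regulators of the particle, 8 were lower and 1 higher for the mean, with a median of -0.45; with the trends removed 4 were lower and 1 higher. ADRM1, the ubiquitin receptor of the 19S base, was the higher one, with a mean of 259 CPM in vitro and 781 CPM in ovo in Hep3B (1.46, limma adjusted p = 0.00364). The change was 0.61 with the trends removed, and the call was lost with library totals alone (0.48). UCHL5, the deubiquitinase that ADRM1 binds, was lower in 3 lines, for instance from 26.9 to 9.63 CPM in HuH7 (-1.44, limma adjusted p = 8.94e-05). The 2 partners thus had opposite signs. Of 9 tested regulators of proteasome gene transcription, 4 were higher and 1 lower for the mean, a share of higher genes near that of all genes. NFE2L1, the factor that raises proteasome genes when the protease is inhibited, was higher in HuH7, from 1071 to 2455 CPM (1.03, limma adjusted p = 0.0291). That call was lost with the trends removed (0.37, limma adjusted p = 0.186), and the mean went from 0.60 to 0.07. Its relative NFE2L2 was lower in HepG2 (-0.98) and HuH7 (-1.05).

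Of 6 ubiquitin and E1 genes, 3 were lower and 1 higher for the mean, a share of lower genes above that of all genes. With the trends removed 4 of them were lower and 1 higher. Of 11 shuttle and p97 factors 3 were lower and 1 higher for the mean, which does not exceed the shares of all genes. With the trends removed 9 of the shuttle and p97 factors were lower, and the higher one was no longer called. VCP, the p97 segregase itself, was lower in Hep3B, from 161 to 43.1 CPM (-2.20, limma adjusted p = 0.0021), and in HuH7 (-1.95); with the trends removed these were -1.20 and -1.33. Of 2 sets of other function, 10 of 21 tested COP9 and eIF3 subunits were lower and 5 higher for the mean, while in PLC/PRF/5 2 were higher and 0 lower (3 lower at an unadjusted p under 0.05 by limma, 0 by edgeR and 3 by DESeq2), and 6 of 8 subunits of the chaperonin TRiC were lower (median -0.56). In HuH7, 6 of 8 TRiC subunits were lower with a median of -1.12. For CCT8, a TRiC subunit, the mean in HuH7 was 16.1 CPM in vitro and 2.63 CPM in ovo (-2.62, limma adjusted p = 0.00104). Whether these lists differ from the proteasome genes was not tested. Without the in ovo libraries numbered 3, the lower and higher genes for the mean numbered 8 and 1 of the accessory parts, 2 and 4 of the transcription regulators, 3 and 2 of the ubiquitin and E1 genes, 6 and 1 of the shuttle and p97 factors, 12 and 5 of COP9 and eIF3, and 7 and 0 of TRiC.

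Promoters of the members were searched for motifs tied to proteasome gene control. Of 47 members 41 were found in the RefSeq promoter table (GRCh38.p14), and the 250 bases before each gene start were read on both strands. The antioxidant response element core TGACNNNGC, which NFE2L1 and NFE2L2 bind with a small MAF partner, occurred in 10 members, 24.4%, and in 11.0% of all 27305 promoters. The CCAAT box CCAAT, which NF-Y binds, occurred in 18 members, 43.9%, and in 33.0% of all promoters. A match is a description of letters and not a bound site. Stretches of 4 promoters are shown on the plus strand because their genes head the results: PSMB3, PSMD3 and PSMD14 were lower in all 4 lines, and PSME1 was higher in Hep3B. They lie at chr17:38752631-38752740 (PSMB3), chr17:39980747-39980806 (PSMD3), chr2:161308365-161308424 (PSMD14) and chr14:24136094-24136153 (PSME1), and capitals mark matches to either motif on either strand, which overlap in PSMD14.
PSMB3: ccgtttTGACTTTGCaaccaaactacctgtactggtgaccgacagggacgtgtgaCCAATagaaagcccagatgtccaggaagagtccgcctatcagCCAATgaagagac
PSMD3: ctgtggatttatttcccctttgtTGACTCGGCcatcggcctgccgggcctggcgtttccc
PSMD14: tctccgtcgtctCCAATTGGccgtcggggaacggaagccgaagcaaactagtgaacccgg
PSME1: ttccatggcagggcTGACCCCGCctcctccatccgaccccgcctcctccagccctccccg
The response element core was thus found both among genes that fell in every line, PSMB3 and PSMD3, and in PSME1, which rose in Hep3B, while PSMD14 held only the CCAAT box.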

How the data were processed

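Per the submitters' processing notes the build is hg38. Aligner and counter: not given in the sources used here. Deposited values are a signal per amplicon that the authors scaled to a sum of 500000 per library, although they are named counts. Multiplying by 2 gave CPM. The low values of a library are multiples of 1 step, which gave back its whole reads (at least 99.97% of values within 0.01 of a whole read). 1 unreadable cell (KRT18, tumour replicate 2 of PLC/PRF/5) was set to what its library lacked of the total, and repeated symbols were given distinct names. TMM factors came from edgeR 4.0.16. filterByExpr by group (at least 10 reads) kept 13100 genes. limma 3.58.1 in R 4.3.3 (eBayes with trend) was fitted to log2(CPM + 1) of all 28 libraries in 8 groups, two-sided, with Benjamini-Hochberg adjustment and calls under 0.05; a pseudocount of 1 CPM understates the change of low genes. A test on counts had been foreseen in case the table held counts. edgeR's quasi-likelihood test and DESeq2 1.42.0 ran on the recovered reads as alternatives, beside other scalings, filters and pseudocounts, a replicate block, removal of amplicon GC and length trends, and each library left out. No pair of replicates agreed within counting noise. Replicate numbers are shared across conditions, and the labels do not state whether they pair the samples. Of 12 same-numbered pairs, 5 had correlated deviations over 0.1 and 4 correlated best with their own number. These correlations cannot decide whether the samples were paired, and the reported fit used no pairing.

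Values per library are given for the 3 highest and 3 lowest called members of each line, the 6 members with the smallest interaction p, the catalytic subunits, PSMD14, the activators, PSMF1 and the tissue variants; PSMB3, PSMD3, PSMA7 and PSMG4, and PSMD7 and PSMD13 in Hep3B alone, were added after their values were seen. Members and lists were chosen with earlier results of these data known. The fits were tested on simulated data. Amplicons were placed by matching their deposited sequences to GENCODE 29 transcripts; promoters came from RefSeq. Floors cover counting error only, as reads carry no molecular identifiers.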

Additional observations from a re-analysis of the deposited data

Results flagged for a closer look

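In 88 groups of 4 tumours (22 members tested in 4 lines), 6 groups held 1 library far from its 3 neighbours; chance alone gives such a gap in about 1 in 20 groups. HepG2 in ovo replicate 3 was the far library for 3 genes: PSME1 read 1271 CPM there and 823 to 870 CPM in the other tumours, PSME3 112 CPM and 41.3 to 48.7 CPM, and PSMG3 103 CPM and 60.3 to 66.1 CPM. PSME2 read 39.3 CPM in Hep3B in ovo replicate 4 and 18.6 to 19 CPM in the others. At levels of a few reads, PSME4 read 1.46 CPM in HuH7 in ovo replicate 4 and at most 0.129 CPM in the others, and PSMG2 read 0.106 CPM in Hep3B in ovo replicate 1 and 0 in the others.

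The response of 7 members differed between the 4 lines by the interaction test of limma. The adjusted p was 0.0036 for PSMD6, 0.00394 for PSMB5, 0.0184 for PSMB6, 0.0197 for PSMD1, 0.0271 for PSMC4, 0.0354 for PSMD10 and 0.0355 for PSMB10. All but PSMB10 were lower in ovo in HuH7, where PSMB10 was not called.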

How the results depend on the processing

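Counts of lower members for the mean of the lines stayed within 1.5 times the reported 30 under every setting run, and so did those of HuH7 (27). With library totals alone, higher members numbered 0 in HepG2, 0 in Hep3B and 2 for the mean, lower ones 38 in Hep3B and 18 in PLC/PRF/5, and 12 differed between lines. With GC and length trends removed, higher members numbered 2 in HepG2, 2 in Hep3B, 0 in PLC/PRF/5 and 2 for the mean, lower ones 17 in PLC/PRF/5, and 13 differed between lines. Without the in ovo libraries numbered 3, 4 were higher in HepG2, 20 lower in PLC/PRF/5 and 24 differed between lines. For members that differed between lines, the share of all genes was counted only in the reported fit (41.8%). With PLC/PRF/5 fitted alone 20 were lower; that fit gives no mean and no interaction, nor did DESeq2 an interaction. Higher members of HepG2 numbered 2 with no filter (1745 of 17928 genes) or with DESeq2 (2159 of 13100 genes). Those of HuH7 numbered 1 with edgeR (3242 of 13100 genes) or DESeq2 (3568). Those of PLC/PRF/5 numbered 0 with DESeq2 size factors (1175 of 13100 genes), no filter (1583 of 17928) or a pseudocount of 0.25 CPM (1619 of 13100). They also numbered 0 with edgeR (1701 of 13100) or DESeq2 (1607). The replicate block gave 1 higher in HuH7, 0 in PLC/PRF/5 and 8 for the mean (25.6%, 9.06% and 33.8% of all genes). Lower were 7, 25, 27 and 8 in HepG2, Hep3B, HuH7 and PLC/PRF/5 (11.9%, 27.3%, 23.7% and 4.82% of all genes). The PLC/PRF/5 calls of PSMD3 and PSMD6 were not made. Thus 3 members were lower in all 4 lines in place of 5 (6.67% against 0.557% of all genes). The 12 pairs of that block correlated between -0.095 and 0.457, 4 of them best with their own number.

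With each library left out in turn, higher members ranged from 0 to 2 in HepG2, 4 to 8 in Hep3B, 0 to 2 in HuH7, 0 to 1 in PLC/PRF/5 and 4 to 7 for the mean. Lower ones ranged from 5 to 14 in HepG2, 19 to 25 in Hep3B, 23 to 29 in HuH7, 2 to 14 in PLC/PRF/5 and 29 to 30 for the mean, and those that differed between lines from 3 to 12. Of the called fold changes of the members with values per library, 1516 kept sign and call over the settings, 116 lost the call and 11 turned. These were PSMB10 with library totals (-0.38 in Hep3B, -0.13 for the mean) and trends removed (-0.032 for the mean), PSMC3 with totals (-0.21 in Hep3B, -0.14 for the mean) and trends removed (-0.22 and -0.24), and with trends removed PSME4 (0.10 in HuH7, 0.30 for the mean) and PSMG2 (0.47 in Hep3B, 0.10 in HuH7). The trend removal shifted genes without reads too, such as PSMB8 in HuH7 (0.44). The turns of PSME4 and PSMG2 near the floor therefore give no direction. The cause of the turns was not tested. Depth limits members under 5 CPM in both conditions: 3 calls in HepG2, 4 in Hep3B and 3 in HuH7.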

Other observations

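PSMA7 differed widely between lines within 1 condition: its cultures read 437 to 529 CPM in PLC/PRF/5 and 243 to 257 CPM in Hep3B, against at most 6 reads per library in HepG2 and HuH7. The other 6 alpha subunits had reads in every culture of all 4 lines. Why 1 amplicon is nearly empty in 2 lines was not tested.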
